A study of Caenorhabditis elegans with 2 samples.

Results

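The chaperonin genes of Caenorhabditis elegans are the 8 cct genes and hsp-60, chosen by symbol from the Ensembl annotation of WBcel235, 9 of the 19973 protein-coding genes on the nuclear chromosomes. They were examined in chromatin immunoprecipitation followed by sequencing (ChIP-seq) of SAEG-2, a nuclear protein known as a partner of SAEG-1 and of the histone deacetylase HDA-2 in the pathway of the kinase EGL-4. All samples were whole L4 larvae of strain RW12230, in which CRISPR had inserted TY1, EGFP and 3xFLAG at the saeg-2 locus (allele st12230 on chromosome III); the larvae were synchronised by bleaching and L1 starvation and were 48 h old. Sonicated chromatin of 200 to 800 bp was precipitated with an anti-GFP antibody. The samples were 2 biological replicates of 1 group, with no second condition. No control precipitation was analysed here, and what part of the signal one would share was not tested.

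Chaperonins are barrel-shaped complexes that take up unfolded proteins and release them folded, at the cost of ATP. In the cytosol the CCT complex, also called TRiC, is built from the products of the cct genes, each of which forms a different position of the ring, and it is known above all for folding actin and tubulin, which it receives partly from the prefoldin complex. In mitochondria HSP-60 folds imported proteins together with a small lid protein, the HSP10 co-chaperonin, and a reporter of hsp-60 is widely used in worms to read out mitochondrial protein stress.

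A gene was counted as holding a peak where the summit of a peak lay in the gene or up to 1000 bp upstream of any of its 5′ ends. By this rule 4 of the 9 genes held a peak in the conservative list, the stricter of the thresholded lists that the authors made from the replicates together, and each held 1. They were hsp-60, cct-8, cct-1 and cct-7. Of all protein-coding genes 843 held one (4.22%). The windows of cct-2, cct-3, cct-4, cct-5 and cct-6 held none. All 4 summits lay in intergenic sequence between the member and a coding gene that is transcribed away from it, and each summit was nearer to the other coding gene.

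The 151 bases centred on each of these summits are printed because they are the sequence at which the signal was highest. They were read from the RefSeq copy of WBcel235 (ce11), 5′ to 3′ on the strand of the chaperonin gene: chrIII:1619054-1619204 (+) for hsp-60, chrIV:1094268-1094418 (−) for cct-8, chrII:8185126-8185276 (+) for cct-1 and chrV:1871885-1872035 (+) for cct-7. Capitals mark the heat shock element core GAANNTTC and the words of 9 or more bases that a pair of the sequences shared on either strand.
hsp-60: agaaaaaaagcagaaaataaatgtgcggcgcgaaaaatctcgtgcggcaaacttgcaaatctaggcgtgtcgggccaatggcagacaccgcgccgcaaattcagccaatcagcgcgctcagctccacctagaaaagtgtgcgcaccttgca
cct-8: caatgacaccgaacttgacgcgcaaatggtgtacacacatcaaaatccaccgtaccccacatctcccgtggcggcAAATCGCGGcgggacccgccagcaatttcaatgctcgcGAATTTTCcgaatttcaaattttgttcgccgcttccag
cct-1: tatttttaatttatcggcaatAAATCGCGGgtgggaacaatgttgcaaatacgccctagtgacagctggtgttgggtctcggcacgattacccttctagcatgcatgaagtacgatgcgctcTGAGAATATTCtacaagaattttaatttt
cct-7: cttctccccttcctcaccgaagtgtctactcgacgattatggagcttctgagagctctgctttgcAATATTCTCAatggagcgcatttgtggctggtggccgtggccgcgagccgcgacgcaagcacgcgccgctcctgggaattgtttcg

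The mitochondrial chaperonin gene had the strongest peak of the 9 in the conservative list and in replicate 1, while in replicate 2 cct-8 stood above it. The gene hsp-60 (WBGene00002025, III 1619742 to 1625803, plus strand) has 4 annotated 5′ ends, and its peak spanned III 1619064 to 1619176. The signal value, the authors' own measure of peak strength with no stated scale, was 286 for the replicates together, 132 for replicate 1 and 156 for replicate 2. This placed the peak at rank 34 of 1145 in the conservative list, 33 of 452 in the thresholded list of replicate 1 and 29 of 541 in that of replicate 2, so it stood near the top of all 3. The summits of the 3 lists lay within 13 bp of each other. The summit was 613 bp upstream of the nearest 5′ end of hsp-60 and 200 bp upstream of that of Y22D7AL.10 (III 1617151 to 1618929, minus strand). RefSeq names the product of Y22D7AL.10 the mitochondrial 10 kDa heat shock protein, which is the HSP10 partner of HSP-60. The peak therefore lay in the 813 bp between the genes of the mitochondrial chaperonin and of its co-chaperonin. The window held 16 ranked peaks; all but this one lay in the gene itself, and the strongest of those had a signal value of 46.7.

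The strongest peak among the cytosolic chaperonin genes was at cct-8, which encodes the theta subunit (WBGene00021934, IV 1087108 to 1093920, minus strand). It spanned IV 1094309 to 1094422. Its signal value was 269 for the replicates together, 109 for replicate 1 and 162 for replicate 2. It was in the thresholded lists of both replicates, at rank 59 of 452 and 26 of 541, and at rank 39 of 1145 in the conservative list. The summit was 423 bp upstream of cct-8 and 198 bp upstream of Y55F3AR.2, which RefSeq names a thioredoxin domain-containing protein, and the summits of the 3 lists lay within 12 bp. The near edge of the noncoding RNA gene Y55F3AR.4 was 134 bp from the summit, which was not within 1000 bp upstream of that gene's 5′ end. In the conservative list the peaks of hsp-60 and cct-8 were 113 and 114 bp wide, where 1079 of the 1145 peaks were 304 bp wide. In the thresholded lists of single replicates, where 280 bp was the usual width, hsp-60 had 280 bp in both, and cct-8 had 280 bp in replicate 1 and 82 bp in replicate 2.

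The peaks of cct-1 and cct-7 were weaker, and only replicate 2 had them in its thresholded list. The gene cct-1 encodes the alpha subunit (WBGene00000377, II 8185443 to 8187601, plus strand), and its peak lay at II 8185049 to 8185352. The signal value was 120 for the replicates together (rank 322 of 1145), 45.2 for replicate 1, from its ranked list, and 71.8 for replicate 2. The summit lay 242 bp upstream of cct-1 and 178 bp upstream of mig-5, which encodes a dishevelled homologue of Wnt signalling. The gene cct-7 encodes the eta subunit (WBGene00020391, V 1872246 to 1875505, plus strand), and its peak lay at V 1871808 to 1872111. There the signal value was 99.2 for the replicates together (rank 537 of 1145), 38.3 for replicate 1, again from its ranked list, and 64.3 for replicate 2. Its summit lay 286 bp upstream of cct-7, 153 bp upstream of T10B5.4, annotated by RefSeq as an aralkylamine N-acetyltransferase, and 20 bp from the noncoding RNA gene T10B5.13 (V 1871980 to 1872075), which lies between them and wholly within the peak. Over the conservative list and the ranked lists of single replicates, the summits lay within 33 bp at cct-1 and 13 bp at cct-7. The irreproducible discovery rate (IDR) is low for a peak whose rank holds between the peak sets compared, and the thresholded conservative list left out peaks with an IDR above 0.01. It also lacked 58 ranked peaks at or below that value, none of which added a chaperonin gene when restored. In replicate 1 the IDR was 0.0254 at cct-1 and 0.266 at cct-7, and in replicate 2 it was 0.000677 and 0.00195. Both peaks thus passed in 1 replicate and missed in the other. The score, which the authors cap at 1000 and which follows the IDR, was at the cap for all 4 conservative peaks, and in replicate 1 it was 662 at cct-1 and 239 at cct-7.

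**Figure D1:**
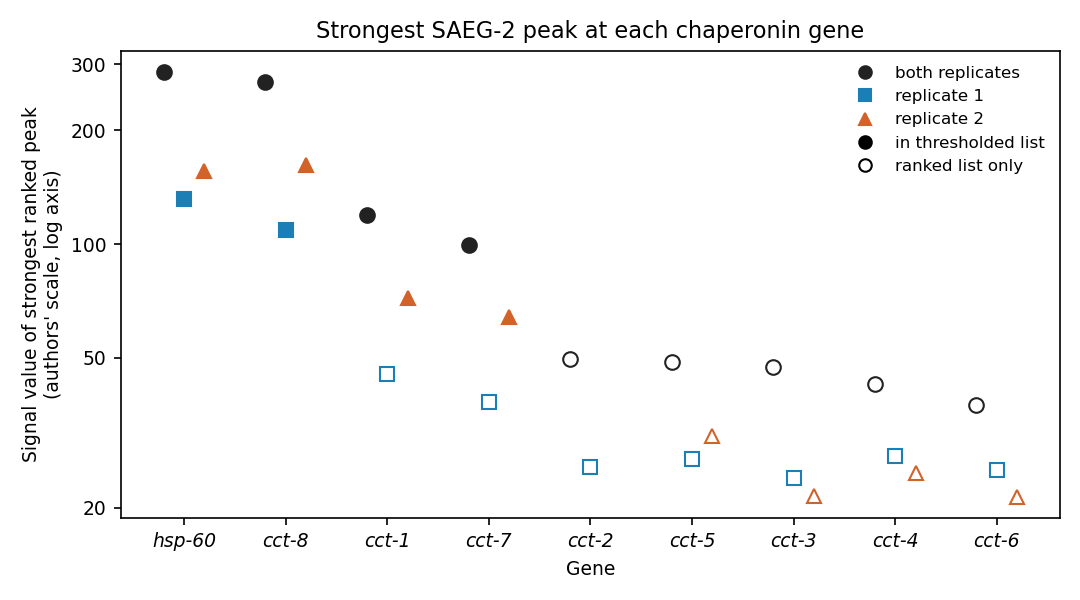
Signal value of the strongest ranked peak in the window of each gene (log axis, authors' scale) in the list of both replicates (circles), replicate 1 (squares) and replicate 2 (triangles); filled symbols are also in the thresholded list. The genes hsp-60 and cct-8 are filled in all 3 lists, cct-1 and cct-7 are open in replicate 1, and the other 5 are open throughout, between 37.6 and 49.6 in the list of both replicates; cct-2 had no ranked peak in replicate 2.

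Over the thresholded lists of single replicates, 2 of the 9 genes held a peak in replicate 1, against 1.91% of all coding genes, and 4 held one in replicate 2, against 2.07%. The genes hsp-60 and cct-8 held one in both, as did 1.28% of all coding genes. When the ranked lists of both replicates were read up to an IDR of 0.05, cct-1 joined them, beside 1.91% of all coding genes. The counts differed between the replicates through cct-1 and cct-7 alone. The same 4 genes held a peak in the non-conservative list (4.89% of all coding genes) and with windows of 2000 bp upstream (5.31%). So they did with promoter windows alone, from 1000 bp upstream to 500 bp downstream of any 5′ end (3.1%), and with an overlap of at least 1 bp in place of a summit (4.6%). The 4 genes also held one with the ranked peaks that pass the IDR threshold restored to the conservative list (4.24%). Among peaks at or above the median signal value all 4 did (2.31%). With 500 bp upstream 3 did (3.56%), since the summit at hsp-60 lies farther out.

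The other 5 subunit genes had no peak in any thresholded list. Their strongest peaks came from the ranked lists, which hold peaks regardless of IDR and place at least 1 summit in the window of 84.3% of all coding genes (88% in the non-conservative ranked list, 72.3% in replicate 1 and 73.3% in replicate 2), so a ranked peak alone says little. For cct-2, the beta subunit (WBGene00000378, II 8927741 to 8929815), the highest signal value was 49.6 in the list of both replicates and 25.7 in replicate 1, and replicate 2 had no ranked peak in the window. That peak sat in a coding exon 1520 bp inside the gene, and also in the upstream window of mrpl-50, named for a mitochondrial ribosomal protein. For cct-5, the epsilon subunit (WBGene00000380, III 4499188 to 4508114), it was 48.7, 27.0 in replicate 1 and 31.1 in replicate 2, and for cct-3, the gamma subunit (WBGene00018782, II 2233540 to 2243539), 47.1, 24.1 and 21.5. These are the longest of the 9 genes, with 17 and 14 ranked peaks in their windows. For cct-4, the delta subunit (WBGene00000379, II 8283667 to 8285711), the values were 42.5, 27.5 and 24.8, and for cct-6, the zeta subunit (WBGene00000381, III 5853530 to 5855687), 37.6, 25.2 and 21.4. At cct-3, cct-4, cct-5 and cct-6 the strongest peak of one replicate was at another place than that of the other. At cct-4, for example, it was 1452 bp inside the gene in replicate 1 and 1115 bp inside in replicate 2. The IDR of the strongest peak in the list of both replicates ranged from 0.170 at cct-5 to 0.379 at cct-6. The nearest conservative summits were 11863 bp from the 5′ end of cct-5, 41775 bp from cct-2, 82527 bp from cct-6 and 145104 bp from cct-3. For cct-4 the nearest was the summit upstream of cct-1, 98466 bp away.

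**Figure D2:**
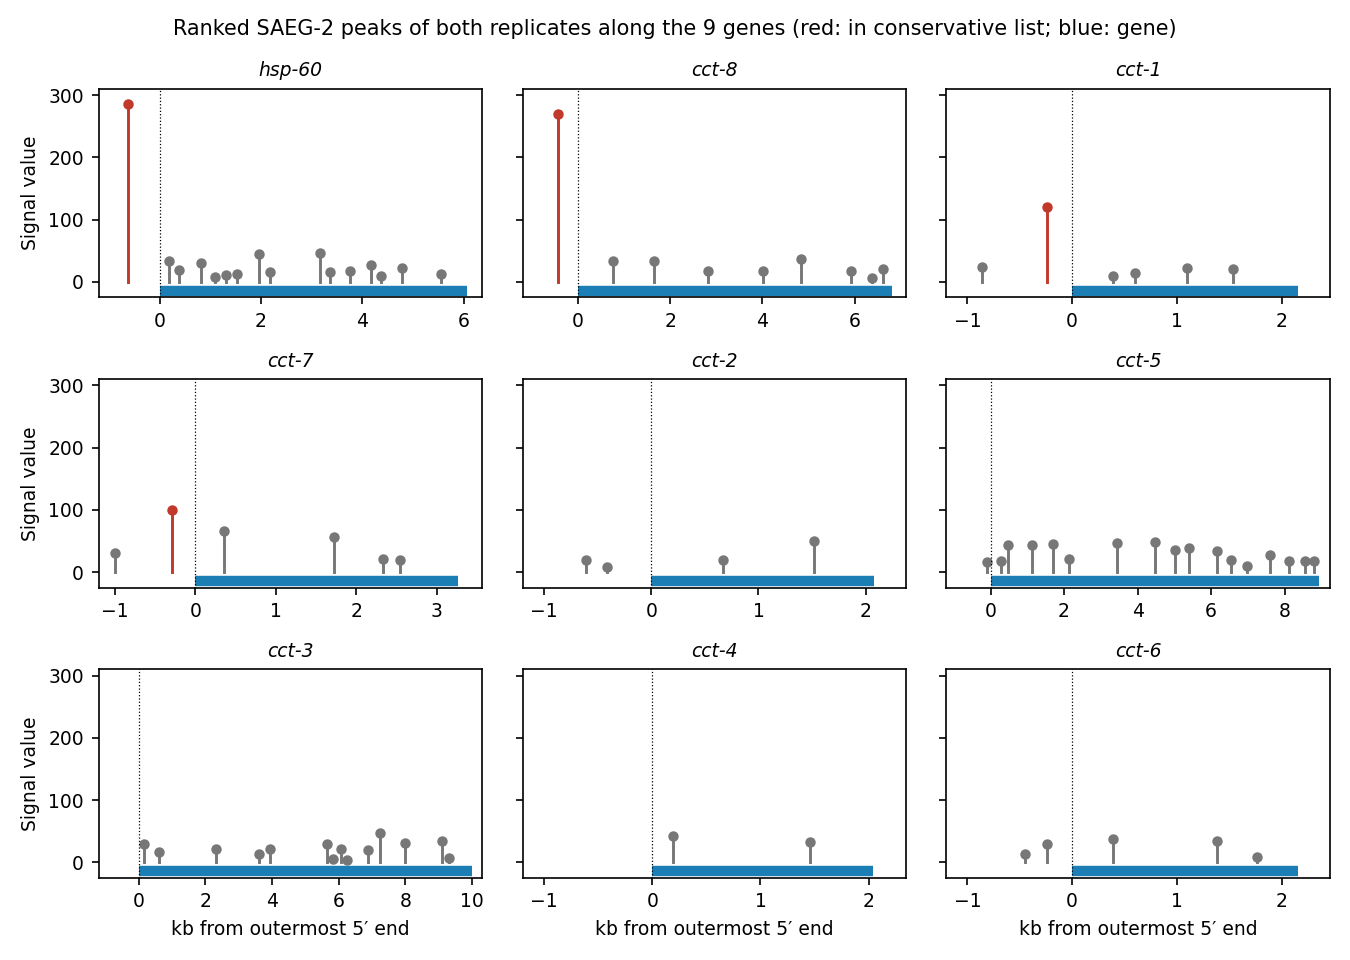
Ranked peaks of both replicates in the window of each gene, placed by the distance of the summit from the outermost 5′ end (kb; the gene, in blue, runs to the right) with the signal value as height; red peaks are in the conservative list. The 4 red peaks stand upstream of hsp-60, cct-8, cct-1 and cct-7 at 286, 269, 120 and 99.2, and no other peak in any of the 9 windows exceeds 65.3.

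When all 19973 coding genes were ordered by their strongest ranked peak in the list of both replicates, hsp-60 stood at rank 32, cct-8 at 37, cct-1 at 273 and cct-7 at 449. The others stood at 4601 (cct-2), 4868 (cct-5), 5495 (cct-3), 7390 (cct-4) and 9767 (cct-6). The median over the 9 genes was 49.6, beside 37.1 over all coding genes, and cct-6 was close to the latter. In promoter windows, from 1000 bp upstream to 500 bp downstream of any 5′ end, hsp-60, cct-8, cct-1 and cct-7 stood at 27, 31, 221 and 359. The others then stood at 4277 (cct-5), 4516 (cct-4), 6280 (cct-6), 9955 (cct-3) and 13399 (cct-2). The peaks that gave these ranks lay inside the gene at cct-5 (484 bp), cct-4 (188 bp), cct-6 (389 bp) and cct-3 (159 bp), by distance from the outermost 5′ end. The median over the 9 genes was then 43.3, beside 28.8 over all coding genes. Within the window that includes the gene body, the first peak was 6.12 times the second at hsp-60, 7.40 times at cct-8 and 5.06 times at cct-1. It was 1.52 times the second at cct-7, where a second peak 353 bp inside the gene reached 65.3. At the 5 genes without a conservative peak the ratio was between 1.04 and 2.51. With the gene body included, subunits of a single complex thus ranged from rank 37 to rank 9767 of all coding genes.

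**Figure D3:**
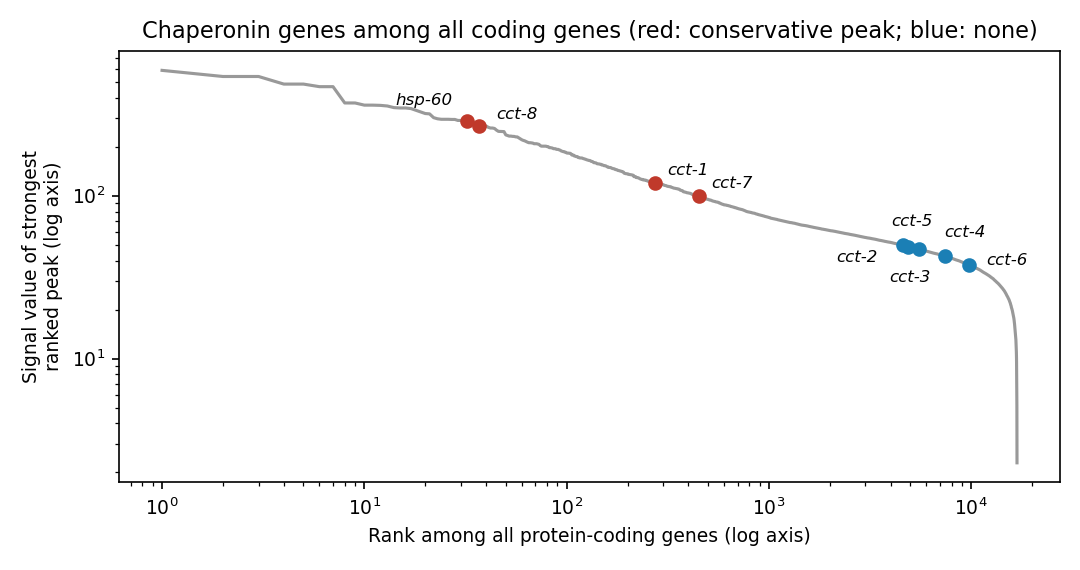
Signal value of the strongest ranked peak in the window of every protein-coding gene, by rank (grey line, both axes log; genes with no ranked peak are left out), with the 9 chaperonin genes as points. The genes with a conservative peak (red) lie at ranks 32 to 449 and those without (blue) at ranks 4601 to 9767.

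Each of the 4 peaks lay between head-to-head genes, and so in the window of a second coding gene. Of the 821 conservative summits in the window of any coding gene, 162 lay in those of 2 or more (19.7%) and 91 lay between head-to-head 5′ ends within 1000 bp (11.1%). A peak in such a place cannot be given to either gene from its position. When each peak was counted only for the coding gene with the nearest 5′ end, 0 of the 9 genes held one, beside 3.16% of all coding genes, and the 4 peaks went to Y22D7AL.10, Y55F3AR.2, mig-5 and T10B5.4. The arrangement itself was not confined to the genes with a peak. All 9 genes have a coding gene on the opposite strand as their upstream neighbour, 7 of them within 1000 bp, and cct-4 (459 bp from nst-1), cct-5 (741 bp from F25F2.1) and cct-6 (331 bp from alh-9) had no conservative peak there. The neighbours of cct-2 and cct-3 were 1190 and 1070 bp away. Among all coding genes, 6.56% of the 3658 with a head-to-head 5′ end within 1000 bp held a conservative peak, and 3.7% of the other 16315.

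**Figure D4:**
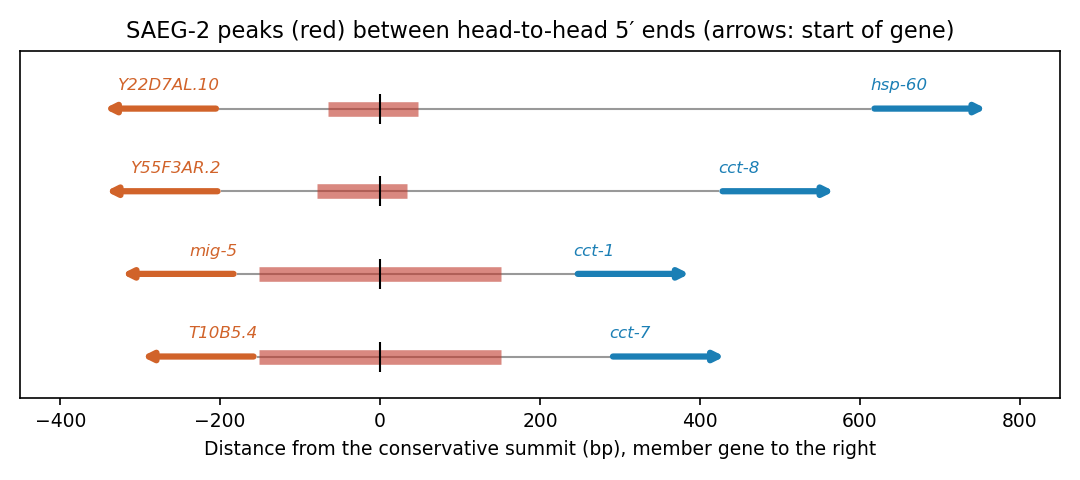
The 4 conservative peaks (red bars, drawn at their width, with the summit at 0 bp) between the 5′ end of the chaperonin gene (blue arrow, right) and that of its head-to-head neighbour (orange arrow, left), in bp. Each summit is nearer to the neighbour, by 200 against 613 bp at hsp-60, 198 against 423 bp at cct-8, 178 against 242 bp at cct-1 and 153 against 286 bp at cct-7.

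Heat shock elements, the sites of the heat shock factor, are built from repeats of GAA and TTC. Their cores TTCNNGAA and GAANNTTC were searched on both strands; each is its own reverse complement and the search allowed overlaps. In the 300 bp around the summit all 4 peaks held at least 1 core, as did 24.9% of all 1145 conservative peaks in the same length and 32.5% of the coding promoters (250 bp before to 50 bp after the outermost 5′ end). At cct-8 the cores GAATTTTC and GAAATTTC lay 41 and 89 bp from the summit. At cct-1 GAATATTC lay 54 bp and TTCTGGAA 107 bp away. At cct-7 TTCGAGAA lay 76 bp and GAATTTTC 131 bp away. At hsp-60 TTCGAGAA, GAAGCTTC and GAAAATTC lay 75, 80 and 111 bp away, outside or at the edge of the printed stretch. These cores at hsp-60 lay on the Y22D7AL.10 side of the summit. Within 100 bp centred on the summit cct-8 alone kept a core, beside 10.2% of conservative peaks. The promoters of 7 members held a core, cct-3, cct-4, cct-5 and cct-6 among them, which had no conservative peak. The promoters of hsp-60 and cct-2 held none. The word GAGAGA, present in 37.7% of conservative peaks and 21.8% of promoters, was in none of the 4 regions, and TATAAA (21.1% and 37.9%) was in that of cct-1 alone. No word of 9 or more bases was common to all 4 of the printed sequences. The pair cct-1 and cct-8 shared AAATCGCGG, which at cct-8 begins at the summit base, and which 0.611% of conservative peaks and 0.185% of promoters held. The pair cct-1 and cct-7 shared TGAGAATATT in opposite orientation (0.175% and 0.365%), which at cct-1 overlaps its core GAATATTC. For both words the share of conservative peaks includes the 2 peaks compared. Of the 1145 peaks, 7 held AAATCGCGG and 2 held TGAGAATATT, the latter being those of cct-1 and cct-7 themselves. The printed sequences were 52.3% GC at hsp-60 and cct-8, 41.1% at cct-1 and 57.6% at cct-7, beside a median of 43% in the 300 bp of all conservative peaks. Such matches describe the letters and were chosen in part after the sequences were seen.

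Other genes of the chaperonin pathways held conservative peaks in 5 of 41 cases, in lists drawn up with earlier results of these data known. Of the 6 prefoldin genes 1 held a peak (16.7%, beside 4.22% of all coding genes). This was pfd-1, with a signal value of 104, 341 bp upstream. The summit was also in the windows of F01G4.6, whose 5′ end was nearer, and of C08F8.13. The peak was thresholded in replicate 2 but not in replicate 1 or the non-conservative list. Of the 21 actin and tubulin genes, the main clients of CCT, 2 did (9.52%). They were tba-2, an alpha tubulin gene, with 116 for the replicates together and 65.8 for replicate 2, 132 bp upstream (I 12966775 to 12967078), and act-4, an actin gene, with 72.3 in an intron and in neither replicate's thresholded list. In the non-conservative list 4 of the 21 did, with tbb-2 and tbg-1 added, beside 4.89% of all coding genes. The summit of tbg-1, 886 bp upstream, was also in the window of rpac-19, whose 5′ end was nearer. That of tbb-2 was also in the window of C36E8.10. In replicate 1 the number of the 21 was 0, beside 1.91%, and in replicate 2 it was 2, tba-2 and tba-7, beside 2.07%. The summit of tba-7 lay in an intron and also in the windows of T28D6.10, T28D6.13 and T28D6.15. Of the 14 mitochondrial chaperone and stress genes 2 did (14.3%). They were Y22D7AL.10, through the peak it shares with hsp-60, and clpp-1, a subunit of the mitochondrial ClpP protease, with 89.3 in neither replicate's thresholded list. The summit at clpp-1 lay in a coding exon and also in the window of WBGene00014638.

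The conservative peaks most like those of hsp-60 and cct-8 in signal value were found by the distance in log2 signal value over 3 lists, that of both replicates and those of replicates 1 and 2, among 1128 peaks with a ranked peak in both. For hsp-60 these were the peaks nearest to T04C4.3 (distance 0.0995, 2785 bp from its 5′ end), rpl-7A (0.127, 54 bp) and pqn-41 (0.131, 2348 bp). For cct-8 they were those nearest to F22H10.2 (0.0750, 2571 bp), pkg-2 (0.162, 5222 bp) and cutl-18 (0.172, 2687 bp). Of these 6 peaks, the one at rpl-7A, a ribosomal protein gene, was near a coding 5′ end, and the other 5 lay over 2000 bp from one. Those of pqn-41, pkg-2 and cutl-18 had their summits inside these genes.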

How the data were processed

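ChIP-seq peak lists of SAEG-2 in 2 biological replicates, on ce11, were used. Per the deposited file list, series lists were made from the alignments of the replicates together and sample lists from those of 1 replicate. For aligner, caller and versions: not given in the sources used here. Peak strength, the signal value, was deposited by the authors with no stated scale and was used to describe and rank peaks within a list. The deposited score is capped at 1000 and follows the IDR, and the authors' ranked lists give −log10 IDR, capped at 5. The lists give no read totals, so depth is unknown.

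Gene windows came from Ensembl release 115 (WBcel235, the same sequence as ce11; 0 peaks passed a chromosome end), and were searched with Python 3.11.15 and pandas 2.3.3; the counting was tested on simulated data. Named were the 9 members, genes whose windows share a summit with theirs, pathway genes with a conservative summit, and the 3 peaks most like each of the 2 strongest; other upstream neighbours were named after their values were seen. Members and lists were chosen with earlier results of these data known, so counts stand beside the share of all coding genes and no test was made. The 2 replicates allow none of a single value. Of 42 pathway symbols 41 were found. Alternatives changed the list, the window, the overlap and the assignment to genes.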

Additional observations from a re-analysis of the deposited data

How the results depend on the processing

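The 4 genes with a conservative peak, hsp-60, cct-8, cct-1 and cct-7, were the same in the non-conservative list, with 2000 bp upstream, with promoter windows alone, with an overlap of at least 1 bp, with the ranked peaks of IDR 0.01 or lower restored and among peaks at or above the median signal value. With 500 bp upstream 3 of them remained, without hsp-60. Counted for the nearest coding 5′ end alone the number was 0. With 1 replicate left out it was 2 to 4, the lower value without replicate 2, where cct-1 and cct-7 were lost. The share of all coding genes with a peak was 1.91% to 2.07% with 1 replicate left out and 2.31% among peaks at or above the median signal value. Of the 41 other pathway genes, 1 to 4 held a peak with 1 replicate left out, beside 1.91% to 2.07% of all coding genes. The number was 3 among peaks at or above the median (2.31%), 6 in the non-conservative list (4.89%) and 7 with 2000 bp upstream (5.31%). Heat shock element cores were in 1 of the 4 regions at 100 bp. The cause of these shifts was not tested. No paired analysis was possible because there is 1 group. Read depth is unknown, so a missing peak does not show that SAEG-2 was absent.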
